A study of Mus musculus with 15 samples.

Results

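Muscle satellite cells of C57BL/6J mice, grown from hindlimb muscle, were exposed to 0.1 mM adenosine for 24 hours and compared with cells given the solvent DMSO, with 3 RNA sequencing libraries per group. These 6 libraries were chosen by their labels, out of 15 in the series, and every gene that carries a name in the second batch's count table was used, 13063 genes in all. The second batch also held 3 libraries with 0.25 mM adenosine monophosphate (AMP), and a first batch held 3 libraries each of DMSO and of 0.05 mM adenosine. Culture was in F10 with 10% horse serum for every group. The strain is labelled for the second batch only, and the labels give no age, no sex and no diabetic state for any of the 5 groups. Whether the 3 libraries per group stem from different mice or dishes is not labelled, so p-values here reflect variation among libraries that could be technical.

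Satellite cells are the stem cells of skeletal muscle. They rest under the basal lamina of the fibre until injury, and then enter the cell cycle, divide as myoblasts under the factors PAX7, MYF5 and MYOD1, and later fuse. Adenosine is both a signal and a metabolite: it acts from outside the cell through G protein-coupled receptors that raise or lower cyclic AMP, or it is taken up by nucleoside transporters and then phosphorylated by adenosine kinase or deaminated to inosine. In the title of the series, elevated extracellular purine nucleotides are linked to impaired muscle regeneration in diabetic mice, and the comparison here asks how adenosine alters the RNA of satellite cells in culture.

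The 6 libraries held 11482198 to 14201933 counts over named genes. The first principal component, which separated the treatments, carried 93.3% of the variance of log2 CPM (counts scaled to the library total) over genes averaging 10 CPM or more. Adenosine replicate 1 stood apart from replicates 2 and 3 in lines rich in ribosomal RNA sequence, such as Gm26917 (4.68% of its counts, against 2.95% and 2.92%). The 20 genes with the most counts over the 6 libraries together held 26.9% of its counts. They held 21.7% and 21.1% in adenosine replicates 2 and 3 and 23.6% to 24.8% with DMSO. All 9 defining satellite cell genes were present, from Pax7 at 46.2, 40.4 and 38.4 CPM to Myod1 at 1333, 1608 and 1649 CPM in the DMSO libraries. Markers of other cells were listed in part: 3 of 16 leukocyte markers, 3 of 10 endothelial, 3 of 12 fibro-adipogenic, 3 of 6 tendon, 3 of 9 smooth muscle, 5 of 8 Schwann and neural, 1 of 7 adipocyte, 5 of 12 adult fibre and 0 of 6 erythroid markers were listed. Ptprc, Cdh5, Pdgfra and Myh11, which define leukocytes, endothelium, fibro-adipogenic cells and smooth muscle, were not among the listed genes. In RNA from whole cultures, fewer cells of a type and less of an RNA per cell cannot be told apart.

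A gene was said to rise or fall if it passed the edgeR quasi-likelihood test at a Benjamini-Hochberg adjusted p under 0.05 over all 13063 genes, and 69.4% of them did (34.9% higher, 34.5% lower). Over all genes the log2 fold change had a median of 0.01. Those fold changes use TMM scaling, which takes most genes as unchanged. With library totals instead, the median of all genes was 0.32 and 68.7% of the called genes were higher, against 50.3% with TMM. Values within about 0.3 of 0 on the log2 scale thus have no certain direction. Both scalings are relative to the other RNA of a library and neither measures RNA per cell, so larger values too give a relative direction only. The CPM printed here are relative to library totals, and ratios of CPM carry the shift between these scalings. The groups of libraries did not overlap in 74.6% of all genes. Against that background, the shares given below for each gene list are to be read beside 34.9% higher and 34.5% lower. Direction also varied with abundance: 53.1% of genes at 100 to 300 CPM fell, and 67.8% of those at 300 CPM or more. These shares are the closer background for lists of abundant genes. By median CPM these include cytosolic ribosomal proteins (616), tubulins (505), translation factors (215), heat shock proteins (213) and the spliceosome core (115). For lists where library totals moved the share of higher among called members by over 10 percentage points, the numbers higher and lower under that scaling follow in brackets. Lists were written by function with earlier results of these data known, and their members and medians are described without a test of the list.

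**Figure D1:**
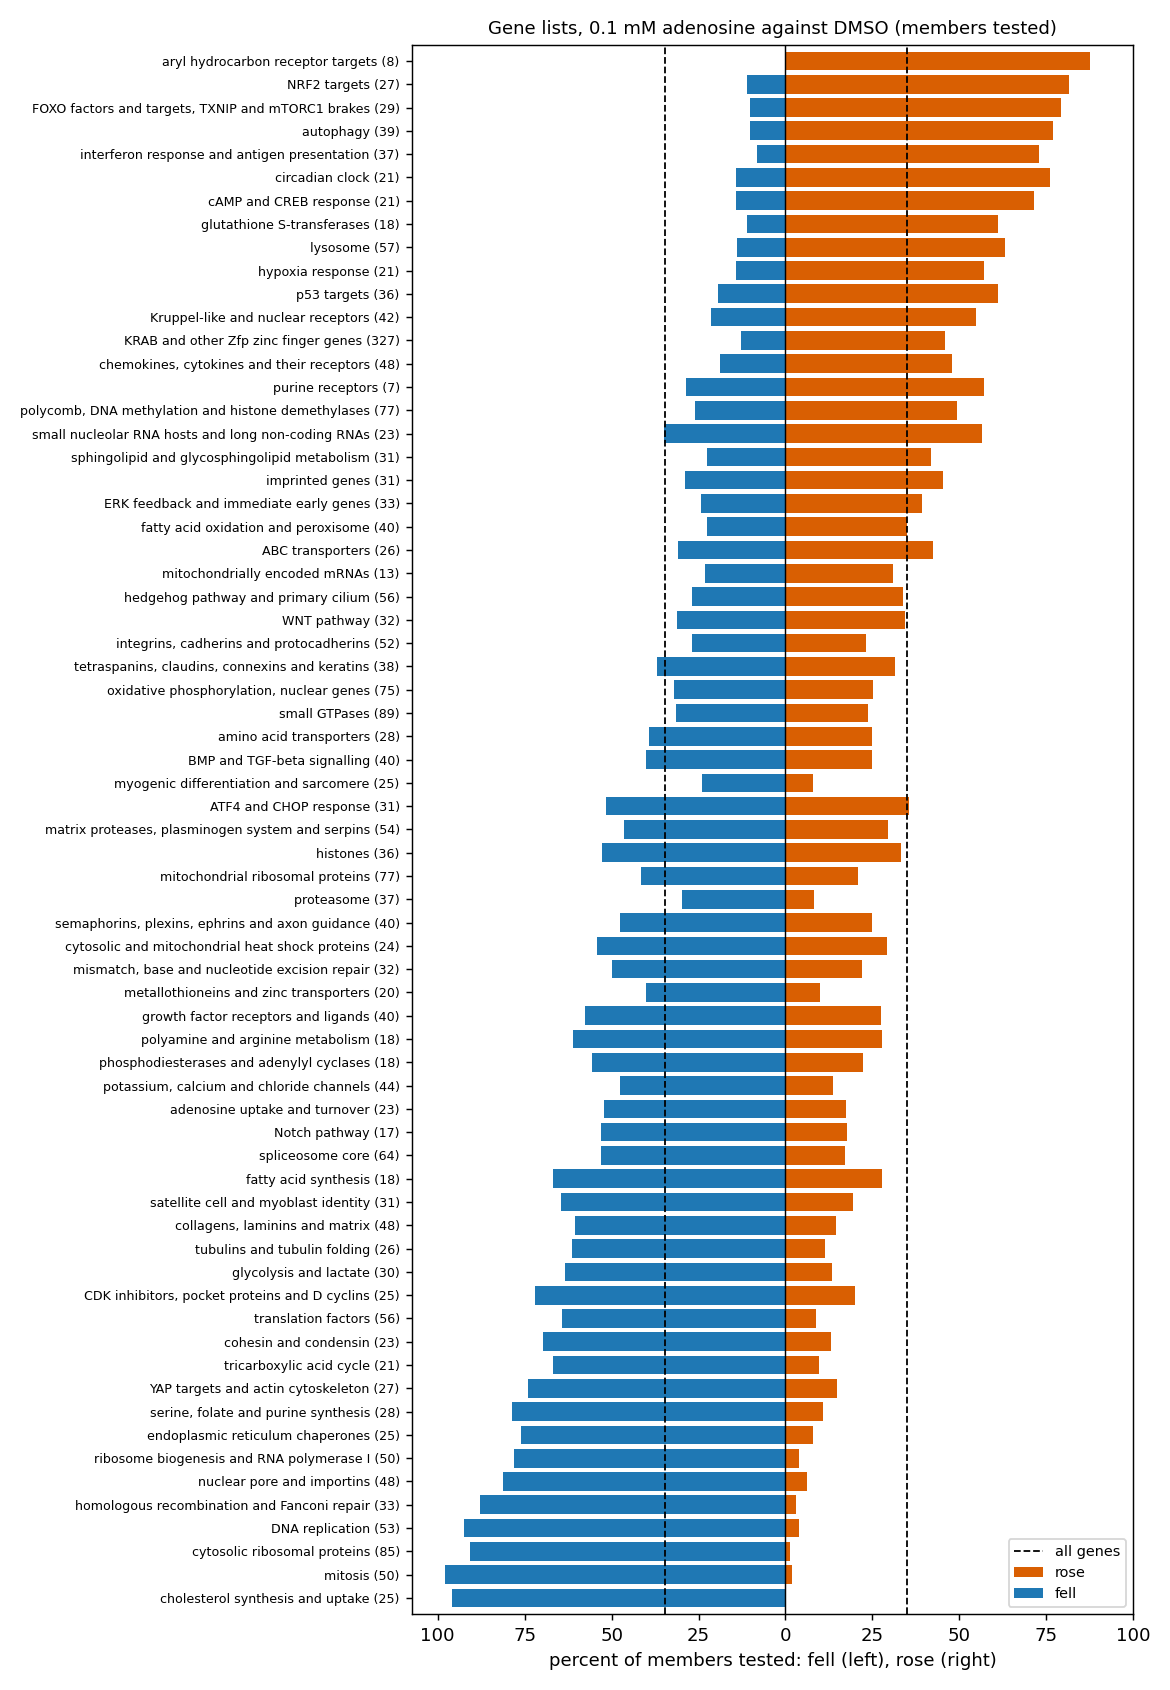
Share of the measured members of 67 gene lists that rose (right, orange) or fell (left, blue) with adenosine, in percent of the members tested, with the share over all 13063 genes as dashed lines (34.9% and 34.5%). Mitosis, cholesterol synthesis and replication lie far to the left, and aryl hydrocarbon receptor targets, NRF2 targets, FOXO targets, autophagy and the circadian clock far to the right.

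The adenosine receptor gene of these cells fell, while most receptor genes for nucleotides rose. Adora2b, the low-affinity receptor that couples to stimulatory G proteins (chromosome 11, 62248984 to 62266453, GRCm38), had 8.66, 13.1 and 10.5 CPM with DMSO and 0.908, 1.96 and 0.508 CPM with adenosine (log2 fold change -3.54, SE 0.44, adjusted p = 3.25e-06). Its groups did not overlap, and it was the only adenosine receptor listed, since Adora1, Adora2a and Adora3 were not in the table. Of the 7 nucleotide and adenosine receptor genes listed, 4 rose (57.1%), 2 fell (28.6%) and 1 did not pass. The ATP-gated channel gene P2rx4 had 13.3, 12.5 and 14.6 CPM with DMSO and 39.6, 41.9 and 39.2 CPM with adenosine (log2 fold change 1.27, SE 0.11, adjusted p = 9.58e-08), P2rx7 was 2.45-fold higher, and P2ry2, a receptor for ATP and UTP, was 4.29-fold lower. These 3 genes were each separated between the groups.

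Genes for the uptake and phosphorylation of adenosine fell. The equilibrative transporter gene Slc29a1 had 163, 178 and 185 CPM with DMSO and 57.5, 60.4 and 69.2 CPM with adenosine (log2 fold change -1.80, SE 0.10, adjusted p = 3.50e-10), and Slc29a2 had 30.3, 35.2 and 32.3 CPM with DMSO and 7.85, 8.21 and 8.47 CPM with adenosine (log2 fold change -2.30, SE 0.16, adjusted p = 5.82e-09). Adk, which codes for adenosine kinase, had 117, 113 and 106 CPM with DMSO and 29.5, 41.1 and 35.7 CPM with adenosine (log2 fold change -1.97, SE 0.10, adjusted p = 2.33e-10). In all 3 genes every adenosine library lay below every DMSO library. Per length, in the deposited FPKM, Slc29a1 stood at 49.5 ± 3.92 FPKM with DMSO and 14.3 ± 1.15 FPKM with adenosine, and Slc29a2 at 14.9 ± 1.41 FPKM with DMSO and 3.04 ± 0.0584 FPKM with adenosine (SD, n = 3), so Slc29a1 was the more abundant of the pair in both groups. Ada, adenosine deaminase, fell by less (-0.87 on the log2 scale), Ahcy, which splits S-adenosylhomocysteine into homocysteine and adenosine, was 5.1-fold lower, and Dck, a kinase of deoxynucleosides, was 4.73-fold lower. By contrast Xdh, whose enzyme turns hypoxanthine into urate, rose from 1.2, 1.31 and 1.35 CPM to 18.1, 22.4 and 20.6 CPM (log2 fold change 3.67, SE 0.23, adjusted p = 1.66e-09), and the AMP deaminase gene Ampd3 was 1.67-fold higher. Over the 23 genes of uptake and turnover, 4 rose (17.4%), 12 fell (52.2%) and 7 did not pass (9 and 9 under library totals), with a median log2 fold change of -0.19 that turned to 0.12 with library totals.

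**Figure D2:**
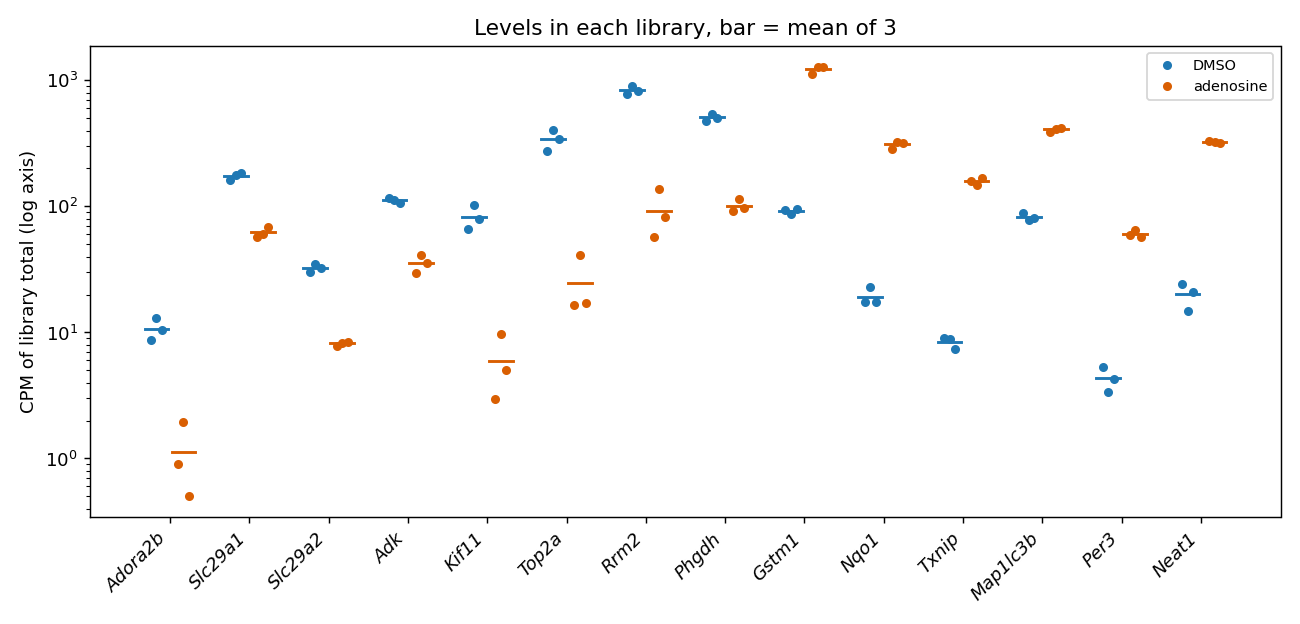
CPM of 14 genes in each of the 3 DMSO (blue) and 3 adenosine (orange) libraries on a log axis, with a bar at the mean of each group. In every one of these genes the groups are apart; Adora2b, Adk and Slc29a2 lie lower with adenosine, and Gstm1, Txnip and Per3 higher.

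Genes that respond to cyclic AMP were mostly higher. Of the 21 measured, 15 rose (71.4%), 3 fell (14.3%) and 3 did not pass (16 and 1 under library totals), with a median log2 fold change of 1.24. The orphan nuclear receptor gene Nr4a1, an immediate target of CREB, had 5.28, 6.01 and 6.37 CPM with DMSO and 26.9, 27.3 and 23.3 CPM with adenosine (log2 fold change 1.83, SE 0.16, adjusted p = 7.58e-08), and Nr4a2 had 2.25, 3.48 and 2.47 CPM with DMSO and 25.9, 24.9 and 28.6 CPM with adenosine (log2 fold change 2.98, SE 0.20, adjusted p = 4.70e-09). Both were higher in each adenosine library than in any DMSO library. The coactivator gene Crtc3 was 3.91-fold higher and Rgs2, which shuts off G protein signals, 4.19-fold higher. The element TGACGTCA, bound by CREB, was found before 2 of 17 of these genes with a sequence (11.8%) and 3.22% of all genes, and the median was 0.30 with a match and 1.25 without. Areg, a ligand of the EGF receptor in the same list, was 2.3-fold lower. Among the 18 genes for phosphodiesterases and adenylyl cyclases, which break down and make cyclic AMP, 4 rose (22.2%), 10 fell (55.6%) and 4 did not pass (5 and 7 under library totals). Pde3a, Pde3b and Pde4a were 4.87-fold lower, 4.87-fold lower and 3.96-fold lower, whereas Pde4b had 45.6, 42.1 and 41.9 CPM with DMSO and 100.2, 94.8 and 90.5 CPM with adenosine and was 1.78-fold higher.

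Genes of cell division fell the furthest of all lists. Of 50 mitosis genes, 1 rose (2%), 49 fell (98%) and 0 did not pass, with a median log2 fold change of -3.56. The kinesin gene Kif11, which pushes the spindle poles apart (chromosome 19, 37376403 to 37421859), had 66, 102 and 79.1 CPM with DMSO and 2.97, 9.7 and 5.08 CPM with adenosine (log2 fold change -4.10, SE 0.37, adjusted p = 9.08e-08). Top2a, which untangles chromosomes, had 276, 407 and 343 CPM with DMSO and 16.4, 40.9 and 17.3 CPM with adenosine (log2 fold change -4.09, SE 0.39, adjusted p = 1.88e-07), and the spindle gene Dlgap5 was 17.1-fold lower. The mitosis list held 0.317%, 0.485% and 0.37% of all counts in the DMSO libraries and 0.0541%, 0.0922% and 0.0657% in the adenosine libraries, with replicate 2 the highest in both groups and no overlap between them. Pttg1, which codes for securin, was the 1 member that rose, from 20.7, 16.5 and 17.6 to 69.1, 68.5 and 79 CPM (log2 fold change 1.67, SE 0.12, adjusted p = 1.03e-08).

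Some of these genes share a short element before the start site. The 250 bases before the RefSeq start (GRCm38.p6) were available for 9399 of the 13063 genes and were searched on both strands for TTTGAA, the core of the cell cycle genes homology region that holds G2 and M phase genes silent in resting cells. It was found in 14 of 43 mitosis genes with a promoter sequence (32.6%), against 12.5% of all 9399 genes. Within the last 50 bases before the start it was found in 10 of the 43 (23.3%), against 1.92% of all genes. Mitosis genes with a match had a median log2 fold change of -3.67 and those without had -3.43, so both sets fell by a similar amount. The last 120 bases before the start of 3 genes among the deepest falls are shown, with the element in capitals (it reads TTCAAA where it lies on the other strand): Kif11 (chr19:37376262-37376381, plus strand), Cdk1, the kinase that starts mitosis (chr10:69352913-69353032, minus strand), and Cep55, needed for the final cut between daughter cells (chr19:38054921-38055040, plus strand).
Kif11: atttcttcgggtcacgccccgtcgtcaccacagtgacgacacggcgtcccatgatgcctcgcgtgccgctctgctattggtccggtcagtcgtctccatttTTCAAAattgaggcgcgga
Cdk1: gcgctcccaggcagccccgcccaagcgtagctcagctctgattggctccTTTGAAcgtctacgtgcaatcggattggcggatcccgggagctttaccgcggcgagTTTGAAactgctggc
Cep55: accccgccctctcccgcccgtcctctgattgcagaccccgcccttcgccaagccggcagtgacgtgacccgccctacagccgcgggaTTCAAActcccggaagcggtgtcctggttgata
Cdk1, with an element 71 and another 15 bases before its start, had 203, 289 and 249.8 CPM with DMSO and 12.7, 36.4 and 16.6 CPM with adenosine (log2 fold change -3.81, SE 0.35, adjusted p = 1.21e-07). Cep55, with its element 33 bases before the start, had 33.9, 48.9 and 39.3 CPM with DMSO and 0.496, 3.75 and 2.8 CPM with adenosine, and the groups of both genes were apart.

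Replication and repair genes fell less far. Of 53 replication genes, 2 rose (3.77%), 49 fell (92.5%) and 2 did not pass, and the median was -1.31. Rrm2, the subunit of ribonucleotide reductase that limits the supply of deoxynucleotides, had 778, 911 and 826 CPM with DMSO and 57.4, 138 and 81.8 CPM with adenosine (log2 fold change -3.50, SE 0.26, adjusted p = 1.17e-08). Cdc6, which loads the replicative helicase, had 105, 105 and 106 CPM with DMSO and 9.25, 19.1 and 14.4 CPM with adenosine, a 9.17-fold lower level. The exceptions were 2 small polymerase subunits: Pold4 had 39.3, 36.4 and 34.1 CPM with DMSO and 212, 245 and 231 CPM with adenosine (log2 fold change 2.34, SE 0.07, adjusted p = 2.73e-12) and Pole4 was 1.59-fold higher. The E2F element TTTNNCGC was found before 12 of 44 replication genes with a sequence (27.3%), against 8.64% of all genes, with medians of -1.33 with a match and -1.27 without. Among 33 genes of homologous recombination and the Fanconi pathway, 1 rose (3.03%), 29 fell (87.9%) and 3 did not pass, with Brca1, Brip1 and Rad54b 9.22-fold lower, 10.3-fold lower and 10.3-fold lower. The 32 genes of the other repair routes had a median of -0.23, or 0.07 with library totals, and of them 7 rose (21.9%), 16 fell (50%) and 9 did not pass (12 and 9 under library totals). Within that list Neil3 and Ung were 12.3-fold lower and 4.53-fold lower, while the p53-dependent damage sensor genes Xpc and Ddb2 were 1.85-fold higher and 2.25-fold higher.

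Genes of cohesin and condensin moved apart. Of 23 genes, 3 rose (13%), 16 fell (69.6%) and 4 did not pass. Esco2 and Cdca5 (sororin), which fix cohesion in S phase, were 13.3-fold lower and 14.4-fold lower, and the condensin genes Ncapg and Ncaph 10.8-fold lower and 8.34-fold lower. The loader genes Nipbl and Mau2 and the acetyltransferase gene Esco1, which work throughout interphase, rose, Esco1 from 31.4, 24 and 23 to 74.6, 71.6 and 79 CPM. Among 25 regulators of the G1 phase, 5 rose (20%), 18 fell (72%) and 2 did not pass. Cdk6 had 315, 287 and 275 CPM with DMSO and 44.8, 64.4 and 49.4 CPM with adenosine (log2 fold change -2.78, SE 0.13, adjusted p = 1.27e-10) and Ccne1 was 7.8-fold lower. The inhibitor gene Cdkn1a, a p53 target, had 365, 397 and 355 CPM with DMSO and 659, 666 and 675 CPM with adenosine, so it was 1.45-fold higher, and the imprinted inhibitor gene Cdkn1c rose from 0.352, 0.0871 and 0.0797 to 5.7, 4.3 and 4.32 CPM. Cdkn1b was not called (log2 fold change 0.04, SE 0.18, adjusted p = 0.864), and Ccnd1, with overlapping groups, was 1.37-fold lower, a call lost with library totals (adjusted p = 0.273). Of 26 genes for tubulins, which make up the spindle and the interphase network, and for tubulin folding, 3 rose (11.5%), 16 fell (61.5%) and 7 did not pass (8 and 11 under library totals). Tubb5 had 2396, 2638 and 2455 CPM with DMSO and 414, 564 and 483 CPM with adenosine (log2 fold change -2.67, SE 0.12, adjusted p = 6.61e-11), Tubb3 was 7.18-fold lower and the folding factor gene Tbcc 2.56-fold higher.

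Most cytosolic ribosomal protein genes fell. Of 85 cytosolic ribosomal protein genes (including retained copies, among which reads can be shared), 1 rose (1.18%), 77 fell (90.6%) and 7 did not pass, with a median of -0.96. Their summed share of all counts was 7.05%, 7.06% and 7.34% with DMSO and 4.11%, 4.7% and 5.01% with adenosine. Rpl7a had 974, 991 and 1002 CPM with DMSO and 257, 304 and 327 CPM with adenosine (log2 fold change -2.05, SE 0.11, adjusted p = 2.87e-10). The member that rose was Rps4l, a paralog of Rps4x (8.34, 15 and 10.5 CPM with adenosine). Eef1a1, which brings aminoacyl-tRNA to the ribosome, lost more CPM than any other of the translation factor genes: it had 6271, 6277 and 6169.6 CPM with DMSO and 1888, 2244 and 2040.3 CPM with adenosine (log2 fold change -1.91, SE 0.10, adjusted p = 2.87e-10), and of 56 translation factor genes 5 rose (8.93%), 36 fell (64.3%) and 15 did not pass (15 and 22 under library totals). The interferon-induced kinase gene Eif2ak2 and the initiation factor genes Eif4g3 and Eif5b were 1.64-fold higher, 1.79-fold higher and 1.39-fold higher. The call of Eif2ak2 was lost without adenosine replicate 3 (adjusted p = 0.0844) or DMSO replicate 3 (adjusted p = 0.112).

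More genes of ribosome assembly and of nuclear transport fell than rose. Npm1, the nucleolar chaperone nucleophosmin (chromosome 11, 33152287 to 33163206), had 2674, 2397 and 2458 CPM with DMSO and 720.1, 884 and 826 CPM with adenosine (log2 fold change -1.94, SE 0.08, adjusted p = 1.92e-11). Among 50 genes of ribosome biogenesis, 2 rose (4%), 39 fell (78%) and 9 did not pass (7 and 23 under library totals), and among 48 of the nuclear pore and importins, 3 rose (6.25%), 39 fell (81.2%) and 6 did not pass. The importin gene Kpnb1 had 253, 238 and 247 CPM with DMSO and 84.2, 90.4 and 91.1 CPM with adenosine (log2 fold change -1.78, SE 0.06, adjusted p = 6.66e-12), and Rcc1, which charges RAN with GTP on chromatin, was 3.49-fold lower. Ipo8 and Ipo13 were the better expressed of the 3 that rose, at 1.52-fold higher and 1.3-fold higher. Spliceosome core genes had a median of -0.26, or 0.05 with library totals, and of 64 11 rose (17.2%), 34 fell (53.1%) and 19 did not pass (24 and 23 under library totals).

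The direction of mitochondrial gene groups depended on the scaling. Of 77 mitochondrial ribosomal protein genes 16 rose (20.8%), 32 fell (41.6%) and 29 did not pass (35 and 13 under library totals), with a median of -0.17 (0.13 with library totals), and of 75 nuclear genes of oxidative phosphorylation 19 rose (25.3%), 24 fell (32%) and 32 did not pass (43 and 7 under library totals), with a median of -0.01 (0.30 with library totals). Single members went both ways: Mrpl54 and Mrps28 were 3.52-fold lower and 3.29-fold lower, while Mrpl32 was 1.77-fold higher and Ndufa8 1.82-fold higher. Of the 13 mRNAs coded in the mitochondrial genome, 4 rose (30.8%), 3 fell (23.1%) and 6 did not pass (7 and 2 under library totals). Among these mt-Co1 had 3589, 3462 and 3462 CPM with DMSO and 6854, 7059.9 and 6041 CPM with adenosine (log2 fold change 0.62, SE 0.09, adjusted p = 2.26e-05), whereas mt-Cytb had 2603, 2394 and 2514 CPM with DMSO and 1702, 1896 and 1584 CPM with adenosine (log2 fold change -0.84, SE 0.08, adjusted p = 1.38e-07). Proteasome genes had a median of -0.02 (0.28 with library totals). Psmb8, an immunoproteasome subunit, had 3.8, 4.35 and 3.98 CPM with DMSO and 18, 15.4 and 16.3 CPM with adenosine (log2 fold change 1.73, SE 0.18, adjusted p = 5.31e-07), the largest rise among 37 proteasome genes, of which 3 rose (8.11%), 11 fell (29.7%) and 23 did not pass (25 and 0 under library totals).

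**Figure D3:**
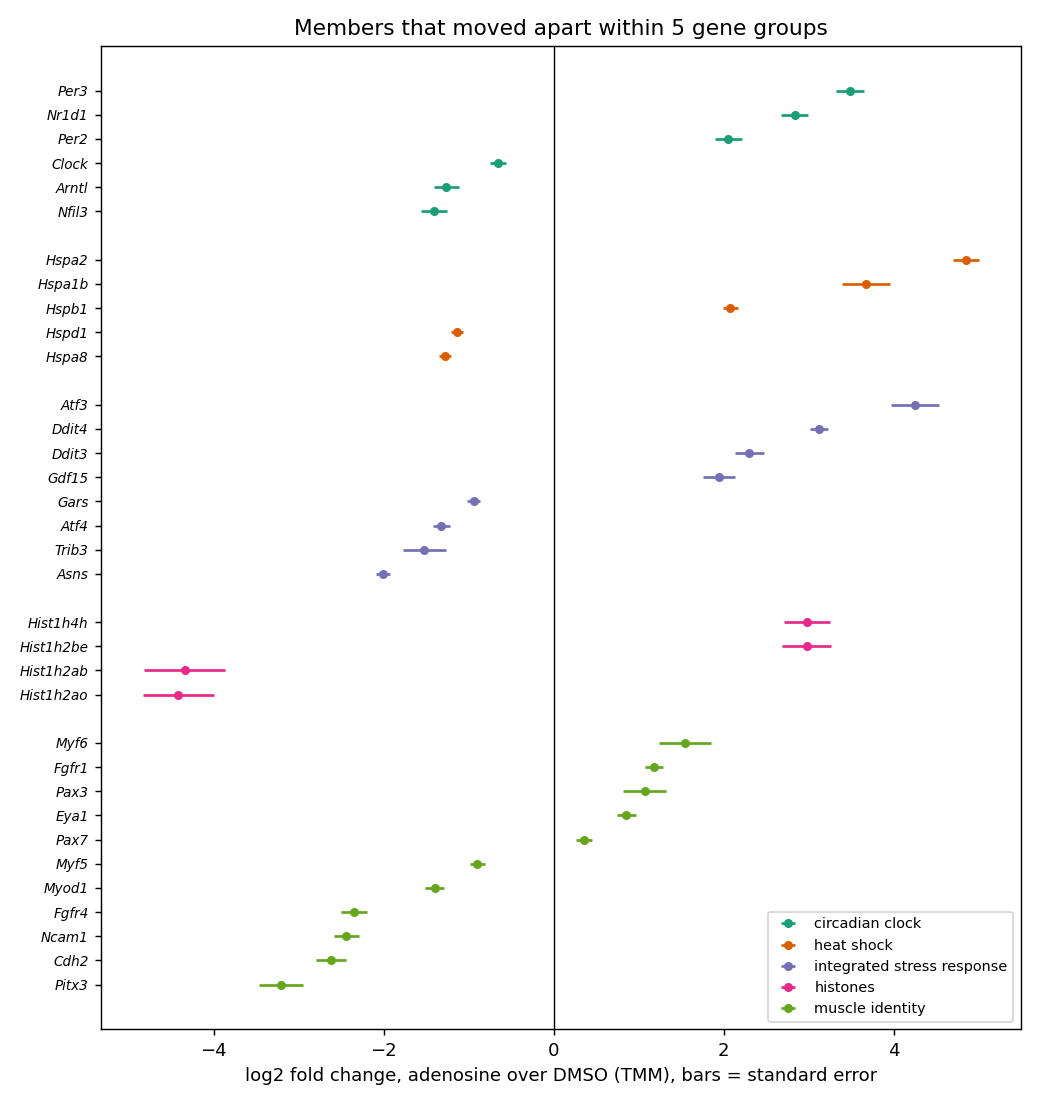
Log2 fold changes (adenosine minus DMSO) with standard errors for named members of 5 gene groups whose members moved apart, each point being 1 gene and the vertical line marking 0. Of the clock genes Per3, Nr1d1 and Per2 lie right of 0 and Arntl, Clock and Nfil3 left of it. Among heat shock genes Hspa2, Hspa1b and Hspb1 lie right and Hspa8 and Hspd1 left.

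Genes of lipid synthesis fell. Of the 25 genes of cholesterol synthesis and uptake 0 rose (0%), 24 fell (96%) and 1 did not pass, with a median of -0.85. The sterol element TCACNCCAC was found before 1 of 17 of them with a sequence (5.88%) and 1.21% of all genes. Hmgcs1, which condenses acetyl units into the precursor of sterols, was 3.08-fold lower. Of 18 genes of fatty acid synthesis 5 rose (27.8%), 12 fell (66.7%) and 1 did not pass, and the elongase gene Elovl6 had 128, 116 and 117 CPM with DMSO and 19, 23.6 and 18.8 CPM with adenosine (log2 fold change -2.86, SE 0.11, adjusted p = 1.31e-11). Lpin1 and Me1 were 2.37-fold higher and 2.13-fold higher. Of 40 genes of fatty acid oxidation and the peroxisome 14 rose (35%), 9 fell (22.5%) and 17 did not pass (26 and 7 under library totals), and Acadvl, the very long-chain acyl-CoA dehydrogenase, was 2.81-fold higher, Eci1 2.18-fold higher and Cpt1c 4.21-fold higher. Acaa2 and Hadh, which act in the mitochondrial cycle, and Pex7, an import receptor of peroxisomes, were 1.65-fold lower, 1.83-fold lower and 2.33-fold lower, and the share that rose was close to that of all genes.

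Serine and one-carbon genes were among the deeper falls of metabolism. Phgdh, the first enzyme of serine synthesis (chromosome 3, 98313170 to 98339990), had 477, 539 and 507 CPM with DMSO and 91.5, 114 and 96.5 CPM with adenosine (log2 fold change -2.65, SE 0.11, adjusted p = 2.40e-11), and Mthfd2, which feeds one-carbon units in mitochondria, had 204, 209.9 and 212 CPM with DMSO and 49.6, 61.5 and 56.8 CPM with adenosine. Of 28 genes of serine, folate and purine synthesis, 3 rose (10.7%), 22 fell (78.6%) and 3 did not pass. Of 18 genes of arginine and polyamines 5 rose (27.8%), 11 fell (61.1%) and 2 did not pass (5 and 6 under library totals), with a median of -0.30 that became 0.01 with library totals. Ass1, which makes argininosuccinate, had 224, 213 and 213 CPM with DMSO and 28.2, 41 and 31.2 CPM with adenosine (log2 fold change -3.004, SE 0.13, adjusted p = 6.10e-11), and the spermidine synthase gene Srm was 2.24-fold lower. Sat1 and Smox, which break polyamines down, were 2.71-fold higher and 2.69-fold higher, and the antizyme gene Oaz2 2.4-fold higher.

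Of 30 genes of glycolysis 4 rose (13.3%), 19 fell (63.3%) and 7 did not pass (5 and 13 under library totals), with Hk2, Pfkl and Pfkm 3.12-fold lower, 2.55-fold lower and 2.87-fold lower and Pdk2, which restrains pyruvate dehydrogenase, 3.07-fold higher. Gapdh, often used as a reference gene, was 1.72-fold lower, and Actb 2.64-fold lower. Of 21 genes of the tricarboxylic acid cycle 2 rose (9.52%), 14 fell (66.7%) and 5 did not pass (7 and 8 under library totals). Pck2, mitochondrial phosphoenolpyruvate carboxykinase, was 5.6-fold lower, Idh2 3.78-fold lower and the citrate synthase gene Cs 2.61-fold lower. Of 31 genes of sphingolipids 13 rose (41.9%), 7 fell (22.6%) and 11 did not pass, with a median of 0.01. Sphk1, which makes sphingosine 1-phosphate, rose from 1.97, 3.31 and 3.35 to 22.6, 19.1 and 16.6 CPM, and its receptor gene S1pr2 was 3.49-fold lower.

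Detoxification genes rose. Gstm1, a glutathione S-transferase whose reads can be shared with close paralogs (chromosome 3, 108012255 to 108017973), had 93.3, 87.9 and 95.6 CPM with DMSO and 1129.9, 1266 and 1269 CPM with adenosine (log2 fold change 3.42, SE 0.08, adjusted p = 5.45e-14). Gsta4, whose enzyme clears products of lipid peroxidation, had 3.87, 4.62 and 4.14 CPM with DMSO and 49.9, 52.6 and 57.7 CPM with adenosine (log2 fold change 3.36, SE 0.13, adjusted p = 1.44e-11). Every adenosine library was above every DMSO library in both, and of 18 glutathione S-transferase genes 11 rose (61.1%), 2 fell (11.1%) and 5 did not pass. Nqo1, a quinone reductase and classic target of the factor NRF2, had 17.3, 23.1 and 17.4 CPM with DMSO and 287, 325 and 318 CPM with adenosine (log2 fold change 3.70, SE 0.10, adjusted p = 6.56e-13). Of 27 NRF2 targets, 22 rose (81.5%), 3 fell (11.1%) and 2 did not pass, and Hmox1, Srxn1, Osgin1 and Ephx1 were 2.03-fold higher, 3.97-fold higher, 5.36-fold higher and 3.52-fold higher. Abcc1 was 1.83-fold lower. The NRF2 element TGACNNNGC was found before 6 of 23 of these genes (26.1%) and 14% of all genes, with medians of 0.56 with a match and 0.85 without. Of 8 aryl hydrocarbon receptor targets, a list that shares Nqo1 with the former, 7 rose (87.5%), 0 fell (0%) and 1 did not pass, and the receptor's own repressor gene Ahrr rose from 0.775, 0.0871 and 0.956 to 8.09, 10.2 and 6.69 CPM. Fth1, the ferritin heavy chain, was among the 8 genes with the largest gain in CPM, from 2569, 2379 and 2596 to 4849, 5864 and 6190.4. The element TNGCGTG of the aryl hydrocarbon receptor was found before 1 of 6 of its targets with a sequence (16.7%) and 8.1% of all genes. The metallothionein genes Mt1 and Mt2, which bind zinc and copper, were 2.05-fold lower and 2.93-fold lower, and of 20 genes of metallothioneins and zinc transporters 2 rose (10%), 8 fell (40%) and 10 did not pass (8 and 3 under library totals), with a median of -0.07 (0.23 with library totals).

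Members of the integrated stress response moved apart. This response raises translation of the factor ATF4, which turns on amino acid genes and, with CHOP, genes of arrest and death. Of 31 genes, 11 rose (35.5%), 16 fell (51.6%) and 4 did not pass (13 and 11 under library totals). Atf4 had 605, 614 and 605 CPM with DMSO and 316, 269 and 317 CPM with adenosine (log2 fold change -1.32, SE 0.10, adjusted p = 1.78e-08) and Asns, which makes asparagine, had 219, 203 and 214 CPM with DMSO and 67.4, 64.2 and 63.9 CPM with adenosine (log2 fold change -2.01, SE 0.08, adjusted p = 1.78e-11). Ddit3, the gene of CHOP, had 8.45, 7.49 and 10.8 CPM with DMSO and 57.9, 51 and 54 CPM with adenosine (log2 fold change 2.30, SE 0.17, adjusted p = 9.99e-09), Atf3 was 19-fold higher, Gdf15 3.84-fold higher and Ddit4, an inhibitor of mTORC1, 8.67-fold higher. Trib3, a target of CHOP, was 2.88-fold lower. The element TGATGNAA, to which ATF4 with C/EBP partners binds, was found before 9 of 25 of these genes with a sequence (36%), against 2.24% of all genes. Those with a match had a median of -0.73 and those without one of 0.09. It stands before genes of both directions, as shown for Asns (chr6:7693210-7693329, minus strand), the glycyl-tRNA synthetase gene Gars (chr6:55037881-55038000, plus strand) and Atf3 (chr1:191183334-191183453, minus strand), each over the last 120 bases before the start and with the element in capitals.
Asns: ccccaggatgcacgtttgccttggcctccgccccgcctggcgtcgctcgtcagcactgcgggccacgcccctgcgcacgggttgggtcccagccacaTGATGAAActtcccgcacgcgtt
Gars: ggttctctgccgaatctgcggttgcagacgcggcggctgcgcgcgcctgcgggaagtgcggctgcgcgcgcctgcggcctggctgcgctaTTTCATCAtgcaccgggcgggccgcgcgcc
Atf3: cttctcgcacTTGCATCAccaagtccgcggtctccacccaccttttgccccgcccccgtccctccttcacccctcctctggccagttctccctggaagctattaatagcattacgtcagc
Asns and Gars were 4.03-fold lower and 1.92-fold lower, while Atf3 rose. Of the 9 genes with a match 6 fell and 3 rose.

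Chaperones differed by family member. Among 25 genes of the endoplasmic reticulum, 2 rose (8%), 19 fell (76%) and 4 did not pass: Hsp90b1 had 531, 555 and 505 CPM with DMSO and 221, 247 and 258 CPM with adenosine (log2 fold change -1.44, SE 0.08, adjusted p = 4.62e-10), Pdia4 was 3.45-fold lower and Dnajb9, a cochaperone, 3.35-fold higher. Of 24 heat shock genes of the cytosol and mitochondria, 7 rose (29.2%), 13 fell (54.2%) and 4 did not pass (11 and 9 under library totals), with a median of -0.19 (0.12 with library totals). The constitutive Hspa8 had 4136, 4090.5 and 4041 CPM with DMSO and 1977, 2174 and 2128 CPM with adenosine (log2 fold change -1.28, SE 0.07, adjusted p = 5.14e-10) and the mitochondrial chaperonin gene Hspd1 was 2.2-fold lower. Hspa2 had 3.45, 4.01 and 3.27 CPM with DMSO and 118, 115 and 149.5 CPM with adenosine (log2 fold change 4.85, SE 0.15, adjusted p = 2.42e-12), Hspb1 had 118, 137 and 139 CPM with DMSO and 612, 713 and 738 CPM with adenosine (log2 fold change 2.08, SE 0.09, adjusted p = 3.72e-11), and the inducible copies Hspa1a and Hspa1b, which can share reads, were 8.49-fold higher and 12.8-fold higher. Each of these genes was apart between the groups. Of 36 p53 targets, 22 rose (61.1%), 7 fell (19.4%) and 7 did not pass (25 and 3 under library totals). Btg2, an antiproliferative gene, had 31.5, 28.2 and 30.4 CPM with DMSO and 224, 228 and 255 CPM with adenosine (log2 fold change 2.66, SE 0.09, adjusted p = 2.79e-12), Trp53inp1 was 6.54-fold higher and Zmat3 1.58-fold lower, while Trp53 itself was not called (log2 fold change -0.14, SE 0.07, adjusted p = 0.0771).

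Most lysosome and autophagy genes rose. Of 57 lysosome genes, 36 rose (63.2%), 8 fell (14%) and 13 did not pass, with a median of 0.54. The sialidase gene Neu1 had 8.8, 5.75 and 5.66 CPM with DMSO and 40.6, 42.1 and 48.9 CPM with adenosine (log2 fold change 2.38, SE 0.16, adjusted p = 3.69e-09), the proton pump gene Atp6v1d was 2.66-fold higher and the cathepsin gene Ctsf 4.03-fold higher. Among the exceptions Glb1, acid beta-galactosidase, had 20.1, 19.8 and 15.8 CPM with DMSO and 6.11, 7.12 and 5.68 CPM with adenosine (log2 fold change -1.86, SE 0.20, adjusted p = 5.84e-07), and Arsb was 2.51-fold lower. Of 39 autophagy genes 30 rose (76.9%), 4 fell (10.3%) and 5 did not pass (34 and 0 under library totals), and Map1lc3b, which coats the autophagosome (chromosome 8, 121590361 to 121598760), had 87.9, 77.3 and 80.3 CPM with DMSO and 392, 412 and 423 CPM with adenosine (log2 fold change 2.01, SE 0.08, adjusted p = 2.27e-11). Ulk1, the kinase that starts autophagy, had 11.1, 11.9 and 11.6 CPM with DMSO and 56.3, 46.8 and 45.6 CPM with adenosine (log2 fold change 1.80, SE 0.14, adjusted p = 1.59e-08), and Calcoco1 was 3.41-fold higher. The groups of Neu1, Glb1, Map1lc3b and Ulk1 did not overlap.

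The element TCACGTGA, bound by TFEB and its relatives and containing the E-box CACGTG, was found before 6 of 45 lysosome genes with a sequence (13.3%) and before 1.92% of all genes. All 6 rose, among them Ctsa (cathepsin A, chr2:164833653-164833772, plus strand) and Mcoln1 (a lysosomal calcium channel, chr8:3500399-3500518, plus strand), shown over the last 120 bases before the start with the element in capitals.
Ctsa: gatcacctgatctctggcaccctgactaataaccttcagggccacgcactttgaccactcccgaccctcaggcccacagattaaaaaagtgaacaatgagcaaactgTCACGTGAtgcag
Mcoln1: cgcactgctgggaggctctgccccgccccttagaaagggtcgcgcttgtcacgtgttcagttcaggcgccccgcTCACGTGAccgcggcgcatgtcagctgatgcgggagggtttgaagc
Ctsa was 2-fold higher and Mcoln1 2.36-fold higher. Lysosome genes with the element had a median log2 fold change of 0.92 and those without it 0.53.

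FOXO targets and brakes on growth mostly rose. Txnip, which blocks glucose uptake and binds thioredoxin, had 9.01, 8.8 and 7.41 CPM with DMSO and 158, 148 and 169 CPM with adenosine (log2 fold change 3.93, SE 0.10, adjusted p = 2.10e-13). Its relative Arrdc4 had 2.96, 1.74 and 2.15 CPM with DMSO and 72.8, 63.1 and 70.4 CPM with adenosine (log2 fold change 4.58, SE 0.19, adjusted p = 2.52e-11), and Fbxo32, the ubiquitin ligase atrogin-1 of muscle wasting, rose from 0.563, 0.523 and 0.159 to 11.8, 13.1 and 13.6 CPM (log2 fold change 4.61, SE 0.32, adjusted p = 6.36e-09). Every adenosine value of these 3 genes lay above every DMSO value. Of 29 genes of FOXO factors, their targets and brakes of mTORC1, 23 rose (79.3%), 3 fell (10.3%) and 3 did not pass (24 and 0 under library totals), with a median of 1.03. Sesn1 and Deptor, with overlapping groups, were 1.44-fold lower and 1.27-fold lower, calls that were lost with library totals (adjusted p = 0.296 and 0.756) and, for Sesn1, without adenosine replicate 3 (adjusted p = 0.0833) or DMSO replicate 3 (adjusted p = 0.179).

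Most muscle identity genes fell, while Pax7 rose. Of the 9 defining satellite cell genes 2 rose and 7 fell, and their summed share was 0.589%, 0.638% and 0.622% of counts with DMSO and 0.324%, 0.394% and 0.366% with adenosine. Pax7, the satellite cell factor, had 46.2, 40.4 and 38.4 CPM with DMSO and 61.8, 66.9 and 69.1 CPM with adenosine (log2 fold change 0.35, SE 0.09, adjusted p = 0.00292). Myf5 had 177, 139 and 164 CPM with DMSO and 94.6, 114 and 110.3 CPM with adenosine (log2 fold change -0.90, SE 0.09, adjusted p = 1.79e-07) and Myod1 had 1333, 1608 and 1649 CPM with DMSO and 651, 759.9 and 747 CPM with adenosine (log2 fold change -1.40, SE 0.11, adjusted p = 1.71e-08). Pax7 was thus above every DMSO value and both myogenic regulators below. Of 31 genes of satellite cell and myoblast identity 6 rose (19.4%), 20 fell (64.5%) and 5 did not pass: the adhesion genes Ncam1 and Cdh2 were 5.43-fold lower and 6.15-fold lower, Fgfr4 5.1-fold lower and Pitx3 9.27-fold lower, while Fgfr1 had 168, 128 and 129 CPM with DMSO and 429.9, 373 and 384 CPM with adenosine (log2 fold change 1.18, SE 0.10, adjusted p = 7.79e-08), and Eya1, Pax3 and Myf6 were 1.81-fold higher, 2.1-fold higher and 2.91-fold higher. Myog, the factor of differentiation, was not called (log2 fold change -0.86, SE 0.67, adjusted p = 0.259), and its groups overlapped, but it was lower with the replicate number as a block (adjusted p = 4.55e-04) and without adenosine replicate 2 (adjusted p = 0.0166). Of 25 differentiation genes 2 rose (8%), 6 fell (24%) and 17 did not pass (6 and 6 under library totals). Chrna1, the acetylcholine receptor subunit, had 566, 633 and 554 CPM with DMSO and 87.3, 153 and 92 CPM with adenosine (log2 fold change -2.71, SE 0.21, adjusted p = 2.29e-08), and Ttn, the giant spring of the sarcomere, was 5.63-fold lower. With library totals the median of this list was 0.10 instead of -0.21.

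Signalling pathways of the niche showed no common direction. Of 17 Notch pathway genes 3 rose (17.6%), 9 fell (52.9%) and 5 did not pass (5 and 7 under library totals): the receptor gene Notch3 had 41.9, 41.6 and 39.1 CPM with DMSO and 8.84, 14 and 8.64 CPM with adenosine (log2 fold change -2.27, SE 0.18, adjusted p = 2.12e-08), the ligand genes Jag2 and Dll1 were 4.13-fold lower and 2.51-fold lower, and the target gene Hes1 was 1.78-fold higher. Of 32 WNT pathway genes 11 rose (34.4%), 10 fell (31.2%) and 11 did not pass (16 and 9 under library totals): the antagonist gene Sfrp1 rose from 0.0704, 0.174 and 0.239 to 8.01, 4.46 and 7.96 CPM, Wnt9a and Fzd5 were 3.37-fold higher and 4.64-fold higher, and the receptor genes Ror1 and Ror2 5.94-fold lower and 7.64-fold lower. Of 40 genes of BMP and TGF-beta 10 rose (25%), 16 fell (40%) and 14 did not pass (14 and 10 under library totals). The ligand genes Bmp4 and Bmp2 went opposite ways, Bmp4 from 24.9, 24.6 and 23.8 to 76.4, 98.1 and 99.4 CPM (log2 fold change 1.59, SE 0.10, adjusted p = 1.52e-09) and Bmp2 from 8.38, 8.27 and 11.8 to 2.97, 3.75 and 3.47 CPM (log2 fold change -1.79, SE 0.22, adjusted p = 2.57e-06). The inhibitory Smad7 was 4.54-fold higher, and Ltbp1, which stores latent TGF-beta, 4.28-fold lower. Of 56 genes of hedgehog signalling and the primary cilium 19 rose (33.9%), 15 fell (26.8%) and 22 did not pass (25 and 12 under library totals). There Smo, Gli2 and Gli3, which carry the hedgehog signal, were 2.75-fold lower, 3.82-fold lower and 3.24-fold lower, and the transport genes Ift20 and Ift81 2.95-fold higher and 3.04-fold higher. Scaled by library totals, Notch, BMP and TGF-beta, and cilium genes had medians of 0.04, 0.21 and 0.22, against -0.27, -0.10 and -0.08.

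Most actin and matrix genes fell. Acta2, smooth muscle actin, had 233, 412 and 278 CPM with DMSO and 21.6, 47.1 and 21.2 CPM with adenosine (log2 fold change -3.67, SE 0.36, adjusted p = 2.58e-07), and Myl9 was 16.7-fold lower and Tagln 4.79-fold lower. Of 27 YAP targets and actin genes 4 rose (14.8%), 20 fell (74.1%) and 3 did not pass, and the 4 that rose were Yap1 itself, Ajuba, and the genes of the YAP inhibitors LATS2 and AMOTL2: Lats2 was 1.71-fold higher and Amotl2 2.37-fold higher. Acta2, Notch3 and Cspg4 were the only smooth muscle and pericyte markers listed, and all 3 fell. Their summed share was 0.0276%, 0.0456% and 0.0319% of counts with DMSO and 0.00309%, 0.00613% and 0.00303% with adenosine, and its part in these results was not tested. Of 48 collagens, laminins and other matrix genes, 7 rose (14.6%), 29 fell (60.4%) and 12 did not pass (11 and 25 under library totals): Lama2, the laminin chain of the fibre's basal lamina, had 65.4, 72.5 and 74.4 CPM with DMSO and 9.17, 12.2 and 8.56 CPM with adenosine (log2 fold change -3.13, SE 0.14, adjusted p = 7.01e-11), the proteoglycan gene Bgn had 120.05, 145 and 98.5 CPM with DMSO and 13.1, 20.3 and 14.2 CPM with adenosine, and Col12a1 was 4.12-fold higher. Of the fibro-adipogenic markers, 3 were listed, of which 2 fell and 1 rose. Dcn is in both lists. Their summed share was 0.0397%, 0.0321% and 0.0355% of counts with DMSO and 0.0283%, 0.0304% and 0.0298% with adenosine, and its part in the matrix result was not tested. The collagen chaperone gene Serpinh1 had 615, 608 and 593 CPM with DMSO and 112, 189.6 and 147 CPM with adenosine (log2 fold change -2.33, SE 0.15, adjusted p = 2.67e-09).

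Of 54 genes of matrix proteases, the plasminogen system and serpins 16 rose (29.6%), 25 fell (46.3%) and 13 did not pass (20 and 19 under library totals). Adam19 was 4.76-fold lower and Adamtsl4 4.21-fold higher. Of 52 integrins, cadherins and protocadherins 12 rose (23.1%), 14 fell (26.9%) and 26 did not pass, with Itgb6 and Cdh13 6.58-fold lower and 4.32-fold lower. Of 40 genes of axon guidance 10 rose (25%), 19 fell (47.5%) and 11 did not pass (15 and 16 under library totals). The 2 netrin receptor genes Unc5a and Unc5b went opposite ways, Unc5b from 2.39, 1.22 and 1.35 to 22.3, 17 and 20.8 CPM (log2 fold change 3.26, SE 0.23, adjusted p = 6.72e-09) and Unc5a from 9.58, 11.5 and 9.88 to 2.56, 2.74 and 1.69 CPM (log2 fold change -2.44, SE 0.25, adjusted p = 3.26e-07). The ephrin gene Efna1 was 7.02-fold higher and Nrp1 4.57-fold lower.

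Growth factor genes went both ways. Of 40 receptors and ligands 11 rose (27.5%), 23 fell (57.5%) and 6 did not pass. Hbegf, a ligand of the EGF receptor, had 16.3, 13.4 and 13.9 CPM with DMSO and 174, 167 and 189 CPM with adenosine (log2 fold change 3.29, SE 0.11, adjusted p = 2.86e-12). Vegfa had 2.82, 3.14 and 3.98 CPM with DMSO and 27.8, 23.5 and 24.9 CPM with adenosine (log2 fold change 2.63, SE 0.19, adjusted p = 9.38e-09), and Ngfr, the low-affinity neurotrophin receptor, rose from 0.211, 0.261 and 0.159 to 12.1, 11.3 and 9.15 CPM (log2 fold change 5.33, SE 0.34, adjusted p = 2.67e-09). All 3 were higher in each adenosine library. Ngfr is also a Schwann cell marker, and of the other markers of that list Mbp was 2.26-fold higher, Pmp22 4-fold lower and Mag 1.97-fold lower, with Sox10 and S100b not listed. The call of Mbp was lost without adenosine replicate 1 (adjusted p = 0.0879) and with limma on log2(FPKM + 1) (adjusted p = 0.0621). That of Mag was lost with library totals (adjusted p = 0.15), with the DESeq2 Wald test (adjusted p = 0.0653) and with the replicate number as a block (adjusted p = 0.052). It was also lost without adenosine replicate 1 (adjusted p = 0.108), adenosine replicate 2 (adjusted p = 0.0651) or DMSO replicate 2 (adjusted p = 0.167). Igfbp4 and Fgf13 were 6.76-fold lower and 7.08-fold lower. Among 33 genes of ERK feedback and the immediate early response 13 rose (39.4%), 8 fell (24.2%) and 12 did not pass (18 and 7 under library totals), with Ier3 5.89-fold higher, Fosb 3.68-fold higher and Mafk 3.53-fold higher, and with Mycn 4.04-fold lower and Dusp10 2.47-fold lower. Myc itself had 379, 373 and 420.2 CPM with DMSO and 390.1, 418 and 438 CPM with adenosine. Its groups overlapped, and its log2 fold change was -0.22 (adjusted p = 0.0355) with TMM and 0.09 with library totals. The call was lost without adenosine replicate 1 (adjusted p = 0.0812), adenosine replicate 2 (adjusted p = 0.0855) or DMSO replicate 3 (adjusted p = 0.169). It was also lost among genes of at least 10 CPM (adjusted p = 0.143) and with limma on log2(FPKM + 1) and log2(FPKM + 0.1) (adjusted p = 0.0603 and 0.0611).

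Most measured interferon and antigen presentation genes rose. Of 50 genes 37 were measured, of which 27 rose (73%), 3 fell (8.11%) and 7 did not pass, with a median of 1.40. Ifit1, Ifit3, Ifit3b, Oas1a, Oas2, Oas3, Oasl1, Mx1, Mx2, Ifi44, Rtp4, Ifi203 and Ifi204 were not among the listed genes, so the shares leave them out. The guanylate-binding protein gene Gbp2 had 3.66, 2.18 and 1.83 CPM with DMSO and 34.4, 37.9 and 38.8 CPM with adenosine (log2 fold change 3.52, SE 0.18, adjusted p = 2.97e-10). B2m, the light chain of class I molecules (chromosome 2, 122147686 to 122153083), had 226, 213 and 211 CPM with DMSO and 667, 696 and 763 CPM with adenosine (log2 fold change 1.40, SE 0.07, adjusted p = 3.01e-10), and the class I heavy chain gene H2-K1, whose reads can be shared with its paralogs, had 165, 163 and 176 CPM with DMSO and 859, 850.1 and 955 CPM with adenosine (log2 fold change 2.09, SE 0.07, adjusted p = 6.66e-12). Isg15 had no counts in any DMSO library and 4.21, 2.82 and 3.81 CPM with adenosine. Ifit2 went the other way, from 33.2, 33.6 and 31 to 15.1, 12 and 13.7 CPM (log2 fold change -1.56, SE 0.13, adjusted p = 3.00e-08), and Bst2 was 1.47-fold lower, a call lost with library totals (adjusted p = 0.104). The 3 leukocyte markers listed, Cd68, Csf1r and Cd14, together made up 0.000314% to 0.000454% of counts with DMSO and 0.00142% to 0.00175% with adenosine, and Ptprc, Adgre1, Itgam and Lyz2 were not listed. The part of these markers in the result was not tested. Cd68, which also lies in lysosomes, was 3.79-fold higher.

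Of 48 chemokines, cytokines and their receptors 23 rose (47.9%), 9 fell (18.8%) and 16 did not pass (28 and 5 under library totals). Cxcl12, the abundant ligand of CXCR4, had 235, 218 and 214 CPM with DMSO and 98.7, 140.0 and 119.8 CPM with adenosine (log2 fold change -1.21, SE 0.10, adjusted p = 4.66e-08), and Il34 and Il1r1 were 6.38-fold lower and 5.16-fold lower. Tnfrsf23 and Il6ra were 6.15-fold higher and 8.6-fold higher. Of 21 hypoxia genes 12 rose (57.1%), 3 fell (14.3%) and 6 did not pass: the vasodilator peptide gene Adm had 12.7, 12.4 and 10.8 CPM with DMSO and 101, 95.2 and 113 CPM with adenosine (log2 fold change 2.79, SE 0.11, adjusted p = 1.99e-11), Epas1, which codes for HIF2-alpha, was 4.81-fold higher, and Egln3 1.77-fold lower.

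Most circadian clock genes rose. In the circadian loop CLOCK and ARNTL drive Per, Cry and Nr1d genes, whose products repress them in turn. Of 21 clock genes 16 rose (76.2%), 3 fell (14.3%) and 2 did not pass, with a median of 1.00. Per3 had 5.28, 3.4 and 4.3 CPM with DMSO and 59.4, 65.1 and 57.2 CPM with adenosine (log2 fold change 3.48, SE 0.16, adjusted p = 9.91e-11) and Nr1d1, which represses Arntl, had 15.8, 12.7 and 14.3 CPM with DMSO and 138, 106 and 133 CPM with adenosine (log2 fold change 2.83, SE 0.16, adjusted p = 8.09e-10). Arntl had 19.4, 20 and 17.4 CPM with DMSO and 9.17, 10.8 and 9.4 CPM with adenosine (log2 fold change -1.26, SE 0.14, adjusted p = 1.10e-06). The 2 groups were apart in all 3. Per2 was 4.15-fold higher, and Clock and Nfil3 were 1.57-fold lower and 2.66-fold lower. The E-box CACGTG was found before 5 of 16 clock genes with a sequence (31.2%) and before 10.2% of all genes, and clock genes with a match had a median of 0.87 and those without one of 1.01. Samples were taken at a single time, 24 hours, so phase and level cannot be told apart.

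Imprinted and long non-coding RNAs moved in both directions. Rian, from the same imprinted cluster as Meg3 on chromosome 12, had 1.55, 1.39 and 1.04 CPM with DMSO and 17.3, 17.3 and 18.6 CPM with adenosine (log2 fold change 3.42, SE 0.25, adjusted p = 1.12e-08). Grb10, an imprinted brake on insulin signalling, had 194, 194 and 186 CPM with DMSO and 65, 73.2 and 71.7 CPM with adenosine (log2 fold change -1.76, SE 0.07, adjusted p = 2.25e-11), and Nnat was 6.84-fold higher and Peg10 2.74-fold lower. Of 31 imprinted genes 14 rose (45.2%), 9 fell (29%) and 8 did not pass (16 and 6 under library totals). Neat1, the scaffold of nuclear paraspeckles (chromosome 19, 5824708 to 5845478), had 24.4, 14.8 and 21 CPM with DMSO and 328, 326 and 319 CPM with adenosine (log2 fold change 3.70, SE 0.16, adjusted p = 6.28e-11), and Lncpint, a p53-linked RNA, rose from 1.48, 0.784 and 0.876 to 31.7, 24.4 and 21.8 CPM. Snhg5 and Zfas1, hosts of small nucleolar RNAs, were 4.82-fold lower and 5.48-fold lower, and of 23 such RNAs 13 rose (56.5%), 8 fell (34.8%) and 2 did not pass.

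Chromatin genes moved in both directions. Of 77 genes of polycomb, DNA methylation and histone demethylases 38 rose (49.4%), 20 fell (26%) and 19 did not pass (50 and 8 under library totals). Dnmt1, which copies methylation after replication, had 313, 337 and 323 CPM with DMSO and 74.4, 108 and 83.2 CPM with adenosine (log2 fold change -2.18, SE 0.13, adjusted p = 1.25e-09), Cbx3 was 4.48-fold lower and Ezh2 2.52-fold lower. Kdm5b, a demethylase of histone H3 lysine 4, had 11.8, 6.27 and 7.49 CPM with DMSO and 56.7, 52.2 and 62.2 CPM with adenosine (log2 fold change 2.42, SE 0.17, adjusted p = 5.92e-09), and Kdm7a and Sirt1 were 6.64-fold higher and 4.13-fold higher. Of 327 Zfp zinc finger genes 150 rose (45.9%), 42 fell (12.8%) and 135 did not pass (206 and 19 under library totals), with a median of 0.38. Of 42 Kruppel-like factors and nuclear receptors 23 rose (54.8%), 9 fell (21.4%) and 10 did not pass: Klf15, a factor of fasting and glucocorticoid responses, rose from 0.493, 0.0871 and 0.239 to 7.1, 2.74 and 6.1 CPM, and Klf2 was 4.97-fold lower.

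Histone genes also moved in both directions. The mRNAs of replication-dependent histones lack the poly(A) tail from which Smart-Seq2 primes, so these genes are read only in part. Of 36 measured, 12 rose (33.3%), 19 fell (52.8%) and 5 did not pass. Hist1h2ao had 11.1, 15.6 and 11.8 CPM with DMSO and 0.413, 0.938 and 0.847 CPM with adenosine (log2 fold change -4.42, SE 0.42, adjusted p = 1.56e-07) and Hist1h2ab was 20.2-fold lower, whereas Hist1h4h had 0.986, 0.958 and 0.956 CPM with DMSO and 9, 9.78 and 9.83 CPM with adenosine (log2 fold change 2.98, SE 0.27, adjusted p = 9.96e-08) and Hist1h2be was 7.87-fold higher. Reads can be shared among these near-identical genes.

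Genes of membrane transport showed falls among channels and both directions elsewhere. Of 44 potassium, calcium and chloride channel genes 6 rose (13.6%), 21 fell (47.7%) and 17 did not pass (10 and 15 under library totals). Clcn5, an endosomal chloride and proton exchanger, had 197, 189.9 and 169 CPM with DMSO and 26.7, 28.1 and 29.2 CPM with adenosine (log2 fold change -3.03, SE 0.11, adjusted p = 8.64e-12), and the potassium channel gene Kcnq5 was 18.5-fold lower, while Clcn7, the lysosomal exchanger, was 1.63-fold higher. Of 26 ABC transporters 11 rose (42.3%), 8 fell (30.8%) and 7 did not pass (14 and 6 under library totals), with Abca1, which exports cholesterol, rising from 0.352, 0.261 and 0.159 to 4.38, 2.19 and 2.88 CPM and Abcg2 5.53-fold lower. Of 28 amino acid transporters 7 rose (25%), 11 fell (39.3%) and 10 did not pass (11 and 8 under library totals), with a median of -0.18 (0.13 with library totals): Slc38a4 had 16.5, 17.5 and 14.7 CPM with DMSO and 1.9, 1.96 and 2.37 CPM with adenosine (log2 fold change -3.27, SE 0.20, adjusted p = 1.38e-09) and the creatine transporter gene Slc6a8 was 3.8-fold higher. Of 89 small GTPases 21 rose (23.6%), 28 fell (31.5%) and 40 did not pass (43 and 18 under library totals), with a median of -0.05 (0.26 with library totals), and Rnd1 and Rnd3, which relax actin, were 4.46-fold higher and 2.98-fold higher. Of 38 tetraspanins, claudins, connexins and keratins 12 rose (31.6%), 14 fell (36.8%) and 12 did not pass (17 and 12 under library totals). Cd63, a tetraspanin of late endosomes, had 1844, 1641 and 1743 CPM with DMSO and 2755, 3005 and 3171 CPM with adenosine (log2 fold change 0.46, SE 0.07, adjusted p = 3.48e-05), and the connexin gene Gja1 was 5.45-fold lower.

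Abundant genes fell more often. Of 459 genes averaging 300 CPM or more over the 6 libraries, 15.3% rose and 67.8% fell, with a median log2 fold change of -0.48. Of 3063 genes at 10 to 30 CPM, 37.3% rose and 33.2% fell, with a median of 0.07. With library totals these medians were -0.17 and 0.37, so the order of the bins was kept and the level moved. Below 3 CPM 45.2% of 2404 genes rose and 16.3% fell; the deposited table lists only genes with at least 101 counts over the 9 libraries, 6 of them treated, so a gene silent with DMSO could enter through the treated libraries more easily than the reverse. Summed exon length made little difference, with medians of -0.02 to 0.08 over 5 classes. Genes of the X chromosome had a median of -0.22 over 430 genes, or 0.09 with library totals, the lowest median of any chromosome under TMM scaling, with 25.6% higher and 42.6% lower.

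**Figure D4:**
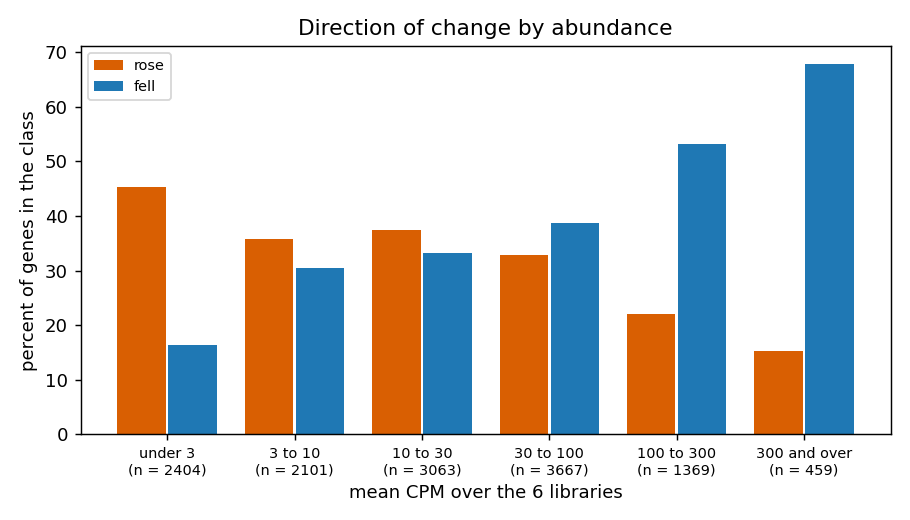
Percent of genes that rose (orange) or fell (blue) with adenosine in 6 classes of mean CPM over the 6 libraries, from under 3 to at least 300 CPM. The share that fell grows with abundance, from 16.3% to 67.8%, and the share that rose is 45.2% in the lowest class and 15.3% in the highest.

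Set directly against AMP at 0.25 mM in the same batch, adenosine differed in 851 of 13063 genes (6.51%): 261 were higher with adenosine (2%) and 590 lower (4.52%). Doses differed, so the compounds cannot be told apart from their concentrations, and both contrasts share the adenosine libraries. Cyp1a1, the aryl hydrocarbon receptor's main target enzyme, had 25.8 ± 4.33 CPM with adenosine, 2.98 ± 0.654 CPM with AMP and 0.655 ± 0.295 CPM with DMSO (SD, n = 3; log2 difference 3.07, SE 0.23, adjusted p = 5.85e-06). Hspa2 had 127 ± 19.2 CPM with adenosine, 58.3 ± 5.69 CPM with AMP and 3.57 ± 0.385 CPM with DMSO (log2 difference 1.08, SE 0.11, adjusted p = 7.06e-05), and Kctd12, a partner of GABA-B receptors, 51 ± 12.9 CPM with adenosine, 21.5 ± 3.49 CPM with AMP and 3.13 ± 0.659 CPM with DMSO (log2 difference 1.22, SE 0.18, adjusted p = 9.19e-04). In each of these, AMP lay between DMSO and adenosine. Tent5c, Rgcc and Ccno were the others of the 6 largest excesses, with log2 differences of 1.19, 1.15 and 1.02.

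Of the 27 YAP target and actin genes, 13 were lower with adenosine than with AMP and 0 higher. Acta2 had 29.9 ± 14.8 CPM with adenosine, 104 ± 59.9 CPM with AMP and 308 ± 93.1 CPM with DMSO (log2 difference -1.84, SE 0.35, adjusted p = 0.00442), and Lpp, a focal adhesion protein, 18.8 ± 3.7 CPM with adenosine, 53.6 ± 10.9 CPM with AMP and 88.4 ± 5.29 CPM with DMSO (log2 difference -1.55, SE 0.15, adjusted p = 6.09e-05). For Cavin2, a coat protein of caveolae, the values were 27.3 ± 8.81 CPM with adenosine, 78.8 ± 21.9 CPM with AMP and 113 ± 7.15 CPM with DMSO (log2 difference -1.57, SE 0.19, adjusted p = 1.54e-04). In these 3 genes AMP again lay between the others. Ablim1, an actin-binding protein, and Bmper, a BMP-binding protein, had AMP means at or above those with DMSO: 12.5 ± 2.91 CPM with adenosine, 40.1 ± 13.2 CPM with AMP and 34.1 ± 1.19 CPM with DMSO for the first (log2 difference -1.73, SE 0.20, adjusted p = 1.40e-04) and 6.7 ± 2.95 CPM with adenosine, 21.4 ± 7.44 CPM with AMP and 14.4 ± 0.643 CPM with DMSO for the second (log2 difference -1.71, SE 0.28, adjusted p = 0.00155). Whether AMP and DMSO differ in these 2 genes was not tested here. These means are relative to library totals, while TMM factors were 1.01 to 1.11 for AMP and 0.864 to 0.893 for DMSO. The order of AMP and DMSO may thus depend on the scaling. The unannotated Gm45837 had a log2 difference of -1.58. These counts rest on single libraries: without adenosine replicate 3 they were 104 higher and 304 lower, without AMP replicate 2 they were 157 and 362, and without AMP replicate 1 the higher count was 158.

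The response at 0.1 mM in batch 2 was also set against that at 0.05 mM in batch 1, as an interaction over 13042 genes. The difference passed in 1563 genes (12%), 821 with the batch 2 effect higher (6.3%) and 742 with it lower (5.69%). With library totals the counts were 1052 and 334. Without DMSO replicate 2 of batch 2 they were 522 and 374, and the lower count was 459 and 439 without DMSO replicates 1 and 3 of that batch and 442 and 445 without adenosine replicate 3 and DMSO replicate 2 of batch 1. Dose and batch changed together and cannot be told apart. Adenosine against DMSO was not tested within batch 1 alone, so its values there are given without a call. Xdh went from 1.29 ± 0.0807 to 20.3 ± 2.15 CPM in batch 2 and from 7.43 ± 0.401 to 16.4 ± 3.34 CPM in batch 1 (log2 difference between the batches 2.73, SE 0.31, adjusted p = 9.48e-05). Dyrk1b, a kinase of resting muscle cells, went from 1.74 ± 0.426 to 33.1 ± 2.26 CPM in batch 2 and from 4.74 ± 1.12 to 16.2 ± 5.09 CPM in batch 1 (log2 difference between the batches 2.35, SE 0.36, adjusted p = 8.67e-04). For both, the lower DMSO level lay in batch 2. The gene of the E3 ligase Rnf39 had a difference of 2.34, and the unannotated 5330406M23Rik one of 2.50.

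The log2 effect on Slc29a2, Ptprg and Prkd1 was more negative in batch 2. Slc29a2 went from 32.6 ± 2.43 to 8.18 ± 0.314 CPM in batch 2 and from 19.2 ± 1.67 to 13.3 ± 2.61 CPM in batch 1 (log2 difference between the batches -1.58, SE 0.25, adjusted p = 0.00116). Ptprg, a receptor phosphatase, went from 30.2 ± 1.92 to 7.2 ± 1.17 CPM in batch 2 and from 30.7 ± 3.69 to 20.7 ± 2.46 CPM in batch 1 (log2 difference between the batches -1.60, SE 0.22, adjusted p = 4.04e-04), and Prkd1, protein kinase D1, went from 15.8 ± 2.19 to 1.58 ± 0.105 CPM in batch 2 and from 17.8 ± 6.23 to 5.74 ± 0.382 CPM in batch 1 (log2 difference between the batches -1.79, SE 0.37, adjusted p = 0.00519). For Ticrr, which starts replication origins, the mean went from 22.9 ± 1.92 to 5.55 ± 2.45 CPM in batch 2 and from 11.8 ± 4.97 to 0.467 ± 0.407 CPM in batch 1 (log2 difference between the batches 2.49, SE 0.65, adjusted p = 0.0185), so the more negative effect lay in batch 1. Without adenosine replicate 2 of batch 2 that difference had an adjusted p of 0.0532. Gal, the neuropeptide galanin, went from 83.3 ± 8.96 to 119.8 ± 20.2 CPM in batch 2 and from 35.8 ± 19 to 225 ± 103 CPM in batch 1 (log2 difference between the batches -2.24, SE 0.42, adjusted p = 0.00331) and was not called in batch 2 (adjusted p = 0.102). Gal was called higher in batch 2 with library totals (adjusted p = 6.46e-04), among genes of at least 10 CPM (adjusted p = 0.0386) and with the replicate number as a block (adjusted p = 0.027). The same held without adenosine replicate 1 (adjusted p = 0.0166) or DMSO replicate 2 (adjusted p = 0.0329). Apobec1, an RNA-editing deaminase, went from 3.31 ± 0.354 to 2.06 ± 0.464 CPM in batch 2 and from 8.62 ± 0.853 to 35.9 ± 26.4 CPM in batch 1 (log2 difference between the batches -2.84, SE 0.71, adjusted p = 0.015), P3h2, a collagen prolyl hydroxylase, from 14.5 ± 1.74 to 7.64 ± 0.446 CPM in batch 2 and from 9.07 ± 2.03 to 13.4 ± 1.42 CPM in batch 1 (log2 difference between the batches -1.60, SE 0.26, adjusted p = 0.00124), and Dpep1, a membrane dipeptidase, from 2.23 ± 0.4 to 2.83 ± 1.1 CPM in batch 2 and from 32.7 ± 12.9 to 4.77 ± 3.1 CPM in batch 1 (log2 difference between the batches 3.01, SE 0.56, adjusted p = 0.00293).

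**Figure D5:**
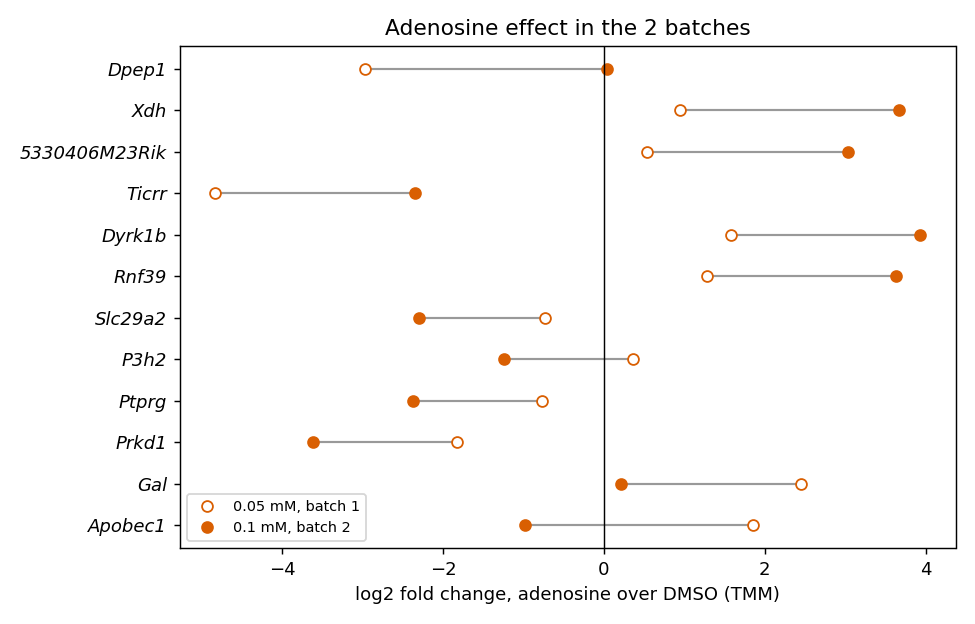
Log2 fold change of adenosine over DMSO for the 12 genes of at least 10 CPM with the largest differences between the batches, 0.1 mM in batch 2 (filled) and 0.05 mM in batch 1 (open, the batch 2 value minus the fitted difference), joined by a line for each gene. Xdh, Dyrk1b and Rnf39 lie right of 0 in both and further in batch 2, Slc29a2, Ptprg and Prkd1 left of 0 and further in batch 2, and Apobec1 and P3h2 have opposite signs.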

How the data were processed

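Smart-Seq2 cDNA of cultured satellite cells was sequenced after Tn5 fragmentation, without molecular identifiers or strand marks, so antisense and overlapping genes cannot be told apart. The submitters' processing notes name Trim Galore, STAR, featureCounts, DESeq2 and mm10; per the file headers, featureCounts 1.6.4 ran without a strand option, as given for the batch 1 table only. The deposited tables hold raw counts and the authors' FPKM, whose library factors differ between groups (1.10 to 1.15 for DMSO, 0.896 to 0.957 for adenosine). In batch 2, 43 lines without a gene name (0.0589% of counts) were left out.

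Counts of all 9 batch 2 libraries were fitted with edgeR 4.0.16 (R 4.3.3; TMM, filterByExpr, quasi-likelihood F test) and adjusted by Benjamini-Hochberg. The standard errors (SE) given with these fits were derived from the test, as the absolute log2 fold change over the square root of F. DESeq2 1.42.0, limma 3.58.1 on log2(FPKM + 1) and log2(FPKM + 0.1), other scalings, filters and left-out libraries were alternatives. For the difference between batches, 13042 genes matched to 1 identifier were fitted over all 15 libraries. On simulated counts of 13045 genes for adenosine against DMSO, 100 genes were changed by 1 and 100 by 2 on the log2 scale, up or down. All others were left unchanged. Of the changed genes 73% and 93% were recovered, with 5.68% false calls. Far fewer genes changed there than were called in the data (69.4%), so these shares cannot test the TMM scaling used here. TMM factors were 0.864 to 0.893 for DMSO and 1.04 to 1.11 for adenosine.

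Same-numbered DMSO and adenosine libraries deviated together (r of 0.155 to 0.343, median of different numbers -0.117). The main fit did not use this pairing. The replicate number entered as a block only in an alternative. All replicate pairs within these groups differed by more than counting noise (chi-square per degree of freedom of 3.54 to 19.9).

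Genes were named by rule: the 12 largest rises and falls of at least 10 CPM, fixed anchor genes, up to 4 called members per direction in each list, the 8 largest gains and losses in CPM, and the 6 largest differences per direction against AMP and between batches. Cdk1, Ctsa, Mcoln1, Gars, B2m and H2-K1 were added after their values were seen, as was the window of 50 bases. For the other elements that window gave, in the list and in all genes, 13.6% and 1.83% (E2F), 16% and 0.457% (ATF4) and 4.44% and 0.83% (TCACGTGA). It gave 4.35% and 3.86% (NRF2), 16.7% and 1.55% (aryl hydrocarbon receptor, 1 of 6 genes) and 6.25% and 3.38% (CACGTG). For TGACGTCA and the sterol element it gave 0% and 1.57%, and 0% and 0.245%. Some genes that the rule names are not reported here. The lists and members were chosen with earlier results of these data known. Promoter sequences are from RefSeq (GRCm38.p6).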

Additional observations from a re-analysis of the deposited data

Results flagged for a closer look

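Of 281 genes named above, 91 had an adenosine effect at 0.1 mM in batch 2 that differed from the effect at 0.05 mM in batch 1, by the interaction of edgeR's quasi-likelihood fit (adjusted p under 0.05 over 13042 genes, of which 12% passed). Many of the 281 were named for a large effect in batch 2 and some for this difference itself, so their share is not comparable with 12%. Each value below is the batch 2 log2 effect minus the batch 1 log2 effect. Of the 91, 62 kept the call in every alternative run. DMSO replicate 2 of batch 2 mattered the most, with 22 calls lost without it. Without each of the other libraries 3 to 19 were lost, except that none was lost without adenosine replicate 1 of batch 1. The call was lost in this number of alternatives, most of them a single library left out: 14 for Ezh2, 13 for Abcg2, 12 for Igfbp4, 10 for Amotl2, Cdc6 and Gars, 9 for Cbx3 and Hspa1b, 8 for Ctsf, Klf15 and Slc38a4, 7 for Smox and Unc5b, 6 for Idh2, Isg15, Nnat and Pax7, 5 for Eci1 and Hspd1, 4 for Atf4, 3 for Gbp2, Osgin1 and Rcc1, 2 for Mt2 and Neu1, and 1 for Hist1h2ab, Hspa2, Ticrr and Trp53. The highest adjusted p among these was 0.146. Dose and batch cannot be told apart.

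For 2 aryl hydrocarbon receptor targets the difference was 6.02 for Cyp1a1 and 4.03 for Ahrr, with fitted effects above 0 in batch 2 and below 0 in batch 1. Adenosine against DMSO was not tested within batch 1 alone. The fitted value for Isg15, 5.44, rests on DMSO libraries without counts in batch 2, depends on the prior count of the fit and is no measure of size. Among other detoxification and stress genes the difference was 0.95 for Nqo1, 0.84 for Gstm1, 0.79 for Osgin1, 0.85 for Ephx1, 2.00 for Ddit4, 1.84 for Hspa1b, 1.30 for Hspa2, -0.54 for Hspa8 and -0.52 for Hspd1. It was -1.18 for Mt1 and -1.10 for Mt2, -0.61 for Asns, -0.56 for Atf4 and -0.46 for Gars.

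Effects of opposite sign were obtained for Apobec1 (-2.84), P3h2 (-1.60), Dpep1 (3.01), Mt1, Trp53 (-0.47) and Pax7 (0.51), beside Cyp1a1 and Ahrr. The batch 1 effect was taken as the batch 2 effect minus the fitted difference. Some effects lay near 0 in 1 batch: 0.04 for Dpep1 and -0.14 for Trp53 in batch 2, and 0.15 for Mt1 and -0.16 for Pax7 in batch 1. For these genes a change of sign is not shown. The effect had the same sign and was smaller in batch 2 for Cdc6 (1.79, a call lost with DESeq2 at an adjusted p of 0.146 and without any of 9 single libraries), Fosb (-2.22), Gal (-2.24) and Ticrr (2.49). The naming of genes by their batch 2 effects favours larger effects in that batch, so the next count cannot show a stronger response there. For the other 79 genes the effect had the same sign and was larger in batch 2.

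Adenosine handling genes were among them, with -0.89 for Slc29a1, -1.58 for Slc29a2, -0.83 for Adk, -0.96 for Ahcy and 2.73 for Xdh. In metabolism the effect was more negative in batch 2 for 5 genes: -0.73 for Mthfd2, -0.81 for Elovl6, -1.13 for Hk2, -0.90 for Idh2 and -0.73 for Srm. It was higher in batch 2 for Acadvl (0.69), Cpt1c (0.81), Eci1 (0.50), Pdk2 (1.34), Oaz2 (0.50) and Smox (0.81).

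In the lysosome, autophagy and FOXO lists the difference was 1.05 for Neu1, 1.11 for Ctsf, 0.64 for Atp6v1d, 0.59 for Map1lc3b, 1.13 for Ulk1, 0.95 for Calcoco1, 1.45 for Txnip and 2.50 for Fbxo32. For p53 targets it was 1.08 for Btg2 and 0.97 for Trp53inp1. For clock genes it was 1.04 for Per2 and 1.61 for Per3.

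Genes of the nucleus and of growth followed. The difference was -0.74 for Npm1, -0.51 for Rcc1, -0.89 for Mrps28, -1.48 for Tubb3, -0.78 for Cbx3, -0.60 for Ezh2 and -3.66 for Hist1h2ab. It was 1.76 for Kdm5b, 1.40 for Kdm7a, 1.19 for Sirt1, 2.31 for Klf15, 1.35 for Crtc3, 1.503 for Lncpint, 1.17 for Neat1, 1.54 for Nnat and -0.69 for Grb10.

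Among signalling, cytoskeleton and transport genes the difference was 1.31 for Adm, 1.28 for Vegfa, 3.10 for Ngfr, -1.12 for Igfbp4, 1.75 for Smad7, 1.45 for Unc5b, 1.32 for Gbp2 and 0.58 for H2-K1. It was -0.65 for Actb, 0.41 for Amotl2, 0.71 for Rnd3, -0.92 for Abcg2, -1.04 for Clcn5, -1.23 for Slc38a4 and 1.19 for Slc6a8. The remaining genes were Kctd12 at 1.89, Dyrk1b at 2.35, Rnf39 at 2.34, 5330406M23Rik at 2.50, Prkd1 at -1.79 and Ptprg at -1.60.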

How the results depend on the processing

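Between adenosine and DMSO, the counts of called genes stayed within 1.5 times of 4559 and 4508 under every alternative except library totals, which gave 6344 higher and 2891 lower. Without 1 library they were 4207 to 4362 higher and 4187 to 4322 lower, with the replicate number as a block 4643 and 4596, and without 6 lines rich in ribosomal RNA, an alternative chosen after seeing the data, 4638 and 4421. Between adenosine and AMP the counts without 1 library were 104 to 281 higher and 304 to 710 lower. Same-numbered adenosine and AMP libraries had r of 0.243, 0.506 and -0.0286, so they were not alike in pairing. With the replicate number as a block the counts were 380 and 779. For the difference between the batches they were 522 to 1034 higher and 374 to 1029 lower without 1 library, 905 and 822 with the block, and 334 lower with library totals.

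Of 262 genes named against DMSO, 250 kept direction and call in every alternative run, as did all 12 named against AMP and 62 of 91 whose effect differed between the batches. The log2 fold change changed sign for Myc (0.0878) and Trp53 (0.169) with library totals, and for Cdkn1b, which was not called, without adenosine replicate 1 (-0.0883), DMSO replicate 1 (-0.0123) or DMSO replicate 3 (-0.0214). Among named genes the replicate block changed the calls of Gal, Mag and Myog against DMSO and of Amotl2 and Ezh2 between the batches, and no other.

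Some list medians changed sign. With library totals the median of all genes moved from 0.01 to 0.32. For the other alternatives the cause was not tested. With library totals they were 0.123 for adenosine uptake and turnover, 0.0736 for mismatch, base and nucleotide excision repair, 0.134 for mitochondrial ribosomal proteins, 0.297 for oxidative phosphorylation, nuclear genes, 0.0513 for spliceosome core, 0.284 for proteasome, 0.0055 for polyamine and arginine metabolism, 0.231 for metallothioneins and zinc transporters, 0.117 for cytosolic and mitochondrial heat shock proteins, 0.103 for myogenic differentiation and sarcomere, 0.0378 for Notch pathway, 0.225 for hedgehog pathway and primary cilium, 0.211 for BMP and TGF-beta signalling, 0.131 for amino acid transporters and 0.259 for small GTPases. Among genes of at least 10 CPM they were 0.0449 for oxidative phosphorylation, nuclear genes, 0.0417 for proteasome, 0.0331 for metallothioneins and zinc transporters, -0.0313 for WNT pathway, 0.116 for hedgehog pathway and primary cilium, 0.0953 for BMP and TGF-beta signalling, -0.960 for integrins, cadherins and protocadherins, 0.175 for histones, 0.0236 for small GTPases and -1.927 for Schwann and neural. In a fit of the 6 libraries the median was 0.0137 for oxidative phosphorylation, nuclear genes. Without the 6 lines rich in ribosomal RNA the median was 0.0046 for oxidative phosphorylation, nuclear genes. Without 1 library they ranged from -0.0470 to 0.0638 for oxidative phosphorylation, nuclear genes, -0.0235 to 0.214 for mitochondrially encoded mRNAs, -0.0177 to 0.119 for sphingolipid and glycosphingolipid metabolism, -0.962 to 0.0369 for myogenic differentiation and sarcomere, -0.0232 to 0.168 for integrins, cadherins and protocadherins, -0.123 to 0.311 for adipocyte.

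Libraries of 11482198 to 14201933 counts leave genes under 1 CPM with few counts each, so their fold changes are the least certain. With 3 libraries a group, an exact permutation test of a single value cannot go below p = 0.1.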
